A study of Homo sapiens and Mus musculus with 47 samples.

Results

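DNA replication and mitosis are carried out by gene products made in waves as a cell moves through its division cycle. Origins are licensed when the MCM helicase is loaded by CDC6 and CDT1, E2F factors and cyclin E start the S phase set, and B-type cyclins, the kinases CDK1, PLK1 and AURKA and the anaphase-promoting complex then drive entry into and exit from mitosis. Because most of these genes are transcribed only in cycling cells, their RNA levels are a common readout of how many cells are dividing and of the phase they are in. The 38 genes described here were chosen by symbol, with mouse genes matched in title case, from 57820 genes listed in the human tables and 55401 in the mouse tables. By role, 17 act in replication (10 in licensing and origin firing, 4 in DNA synthesis and nucleotide supply, 3 as G1/S regulators) and 21 in mitosis (8 cyclins and kinases, 5 in the spindle checkpoint and the anaphase-promoting complex, 8 in the spindle and chromosome structure). The comparisons ask whether the antisense oligonucleotides (ASOs) or the chromatin reader proteins used in the study came with a change in this division set.

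Of 47 libraries listed, 35 were used, 17 RNA-seq libraries with 8258859 to 15330874 assigned counts and 18 Chrom-seq libraries with 10012172 to 17558305. HEK293T, a human embryonic kidney line, was transfected (for 48 h in the study's stated ASO assays) with a non-targeting control ASO (n = 3) or with ASOs against SETD5-AS1 (n = 3), LINC00641 (n = 2) or LINC00662 (n = 3), which are long noncoding RNAs. A second HEK293T RNA-seq set held libraries with the CBX7 reader (n = 3), a chromodomain that binds H3K27me3, and a control (n = 3) that the study's methods call untreated HEK293T. In Chrom-seq, a reader carrying a tag array recruits the peroxidase APEX2, which biotinylates nearby RNA for isolation, and the control (n = 3 per line) carries the array without a reader. The TAF3 reader, a plant homeodomain that binds H3K4me3, was used in HCT116 (human colorectal carcinoma), NIH3T3 (mouse fibroblasts) and Neuro-2a (mouse neuroblastoma), with n = 3 in each. The labels give 48 h of expression, 30 min of 500 µM biotin-aniline and 1 min of 1 mM hydrogen peroxide for every library, the RNA-seq libraries and their controls included. All are established lines, whether a clone was selected is not stated, and the study calls its Chrom-seq and CBX7 replicates independent without saying that they were separate cultures, so p-values measure the spread between libraries, which may be technical.

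HEK293T marker genes summed to at least 1003.9 CPM (counts scaled to library size with TMM factors) in each RNA-seq library. HCT116 markers summed to at least 2600 CPM in HCT116, and leukocyte markers to at most 6.45 CPM in any library. The HEK293T markers did not set that line apart from NIH3T3, where they summed to 1770 to 1932.8 CPM. They summed to 529.2 to 779.2 CPM in Neuro-2a and to at most 17.1 CPM in HCT116. NIH3T3 markers summed to at least 6851.9 CPM in NIH3T3 and to 232.4 to 397.5 CPM in Neuro-2a. Neuro-2a markers summed to at least 846.0 CPM in Neuro-2a and to at most 7.07 CPM in NIH3T3. The HCT116 and Neuro-2a markers were higher with the control ASO. The 7 HCT116 markers summed to 546.4 to 625.7 CPM there, with 1 at 0, and to 238.4 to 426.9 CPM with the targeting ASOs. The 9 Neuro-2a markers summed to 98.8 to 115.4 CPM, against 34.5 to 51.0 CPM. The NIH3T3 markers overlapped, at 214.6 to 237.9 CPM against 164.8 to 224.1 CPM. The part of these markers in the ASO differences was not tested. Each ASO lowered its own target. SETD5-AS1 stood at 50.8, 51.5 and 51.7 CPM with the control ASO and at 4.79, 4.32 and 4.01 CPM with its ASO. LINC00641 went from 41.4, 37.1 and 40.0 CPM to 0.931 and 1.95 CPM, and LINC00662 from 11.98, 13.8 and 12.8 CPM to 2.0, 1.25 and 1.55 CPM. SETD5-AS1 was also lower with the LINC00641 ASO (log2 fold change -0.82) and the LINC00662 ASO (-0.83). Counts at the CBX7 gene rose from 18.6, 14.7 and 16.3 CPM to 43.7, 39.8 and 41.6 CPM in the reader libraries. The paper's CBX7 reader is a fragment of the mouse protein, and the part of reader RNA in these counts was not tested. In Neuro-2a, replicate 1 of the TAF3 reader differed from the others of its group, and the results of the TAF3 test there are given with and without it.

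The study lists 3 ASOs against SETD5-AS1, 2 against LINC00641, 3 against LINC00662 and 1 control, each of 20 bases, and which of them each library received is not stated. The LINC00662 ASOs and the control are shown because 2 members described below hold a site with a long match to one of them. The capitals in LINC00662-ASO-3 mark the unbroken stretch of 18 bases that is complementary to a site inside the genes TYMS and CENPE, on their RNA strand.
LINC00662-ASO-1: tgtagtctcttatctgcacc
LINC00662-ASO-2: actctgtctcaaataacttg
LINC00662-ASO-3: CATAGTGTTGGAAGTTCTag
ASOXNC23: ttctccgaacgtgtcacgtt
site in CENPE: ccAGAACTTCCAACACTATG
In hg19, LINC00662-ASO-1 matched in full 1 site in the genome, in a LINC00662 exon (chr19:28284662-28284681, minus strand), and LINC00662-ASO-3 matched 112 sites, 1 of them in the LINC00662 exon at chr19:28281738-28281757. LINC00662-ASO-2 matched only the spliced LINC00662 transcript, and the control ASO matched no site. The site in CENPE lies in an intron at chr4:104110925-104110944 on the minus strand, and this site and the one in TYMS are complementary to 19 of the 20 bases, 18 of them in 1 unbroken stretch.

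**Figure D1:**
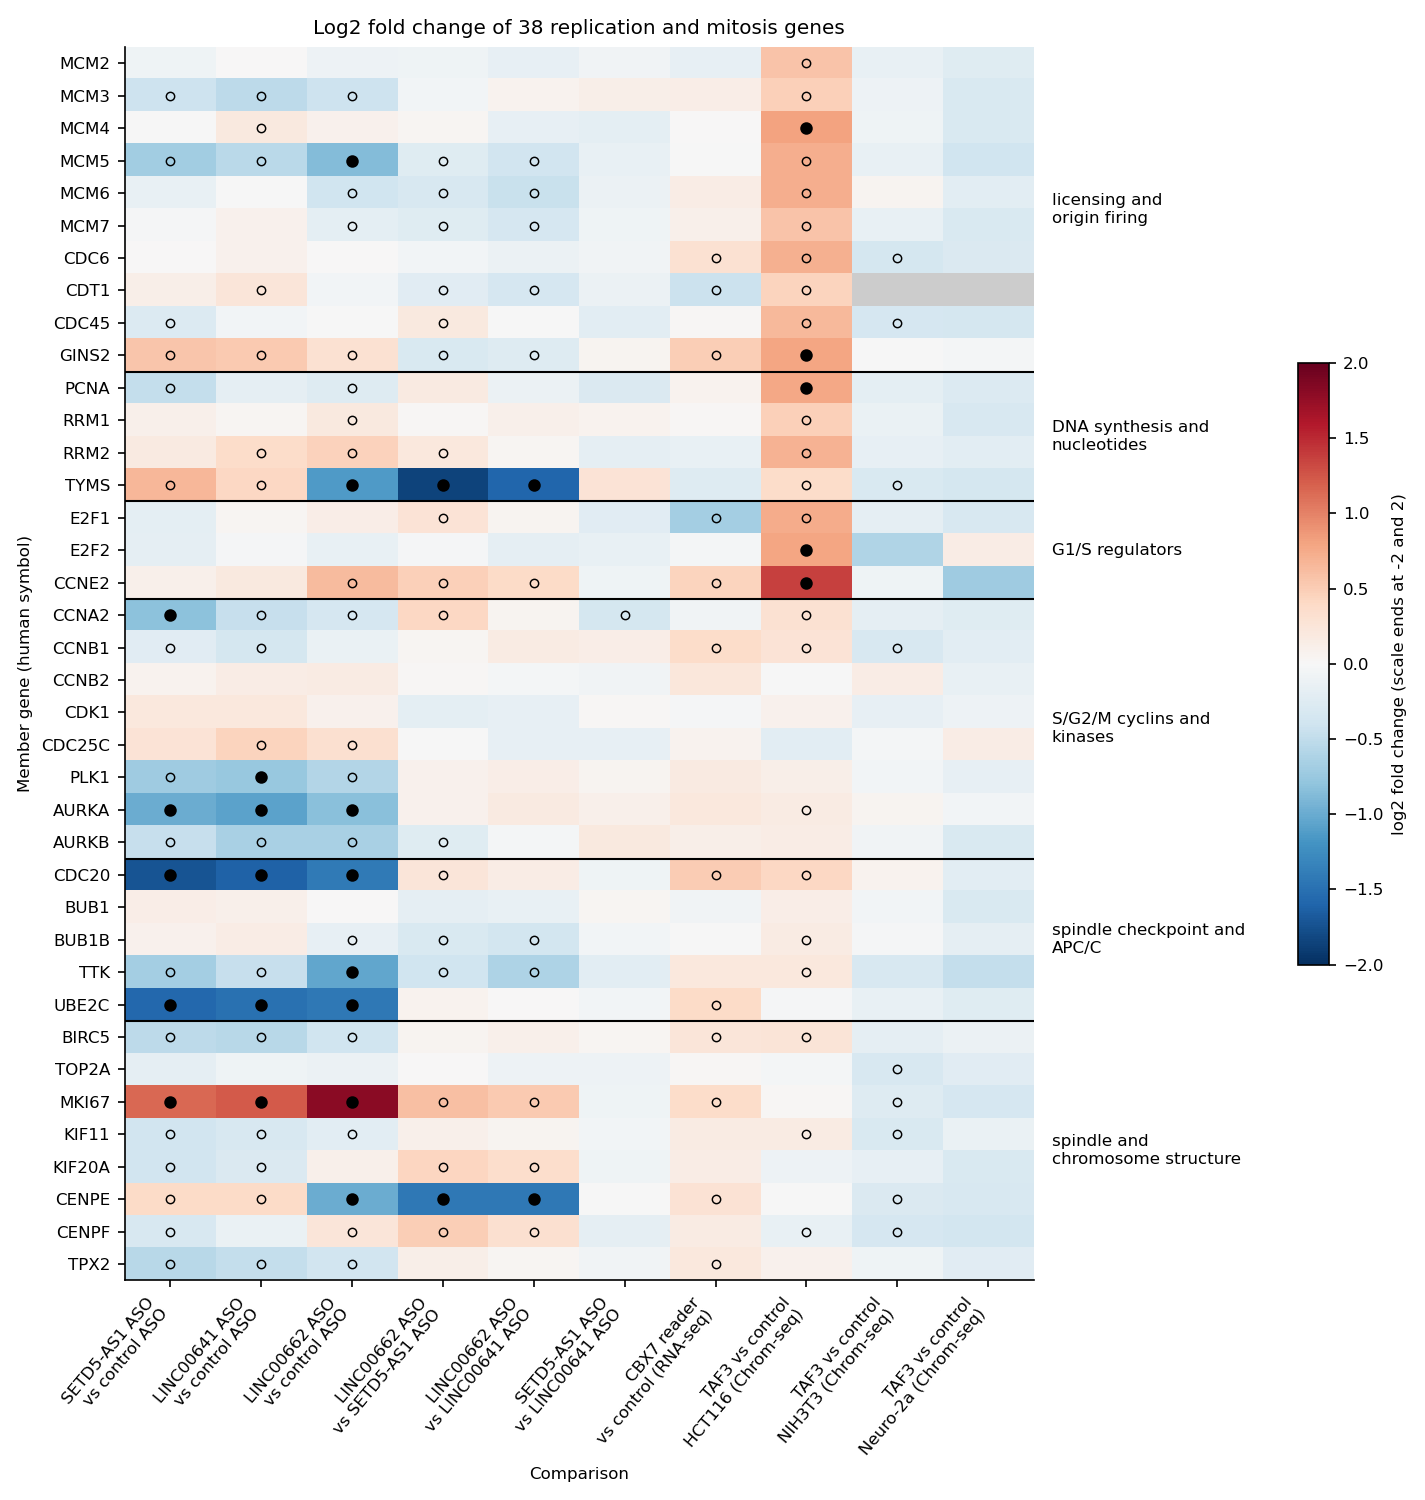
Log2 fold changes of the 38 members (rows, grouped by role) in 10 comparisons (columns), with colour from blue (lower) to red (higher). Filled dots mark members called at adjusted p under 0.05 and at least 0.75 in size, open dots those that passed adjusted p alone, and grey marks Cdt1, which was not tested in mouse. Against the control ASO, CDC20, UBE2C and AURKA are blue in all 3 targeting groups and MKI67 is red. Other mitosis rows, such as CENPE, CENPF and KIF20A, change direction between these groups. In HCT116 the red cells fill the replication rows.

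Against the control ASO, the members called with the SETD5-AS1 and LINC00641 ASOs belonged to mitosis, and they moved in both directions. With the LINC00662 ASO the replication members TYMS (log2 fold change -1.13) and MCM5 (-0.87) were called lower as well. CDC20 and UBE2C, the activator and the ubiquitin-conjugating enzyme of the anaphase-promoting complex, fell with every targeting ASO, as did the mitotic kinase AURKA, while MKI67, which coats mitotic chromosomes and is the common proliferation marker, rose. A gene was called at adjusted p under 0.05 in edgeR's quasi-likelihood test (Benjamini-Hochberg over all genes tested) if it also differed by 0.75 or more on the log2 scale. With the SETD5-AS1 ASO, 5 of 38 members were called, 1 higher and 4 lower, where 24.4% of all genes tested were called, 12.9% higher and 11.5% lower. With the LINC00641 ASO it was 1 higher and 4 lower against a background of 22.5% (11.5% lower). With the LINC00662 ASO it was 1 higher and 7 lower against 24.9% (11.6% higher and 13.3% lower). These comparisons share the 3 control ASO libraries, and their shares of members called lie near or below those backgrounds. In bulk RNA, fewer cells in a phase and less RNA per cell cannot be told apart.

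CDC20 (hg19 chr1:43824626-43828874) was at 416.1, 422.8 and 396.6 CPM with the control ASO. It was at 139.6, 138.7 and 113.6 CPM with the SETD5-AS1 ASO, 134.9 and 143.7 CPM with the LINC00641 ASO and 152.8, 153.3 and 158.9 CPM with the LINC00662 ASO. All 8 targeting libraries lay far below all 3 control ASO libraries. The log2 fold changes were -1.72 ± 0.09 (SE), -1.62 and -1.42 in that order of groups, with an adjusted p from edgeR of 8.5e-11 for the first. UBE2C (chr20:44441215-44445596) went from 156.5, 160.1 and 156.1 CPM to 50.1, 57.4 and 59.1 CPM, 55.7 and 60.4 CPM, and 59.1, 64.6 and 51.6 CPM. Its groups did not overlap either, with log2 fold changes of -1.57, -1.4999 and -1.44. AURKA (chr20:54944445-54967393) stood at 196.6, 199.6 and 174.0 CPM with the control ASO and between 89.2 and 110.2 CPM in the targeting libraries, with log2 fold changes of -0.99, -1.08 and -0.84.

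MKI67 (chr10:129894923-129924649) went the other way. It was at 292.6, 287.5 and 301.9 CPM with the control ASO, at 679.9, 657.1 and 702.3 CPM with the SETD5-AS1 ASO, at 774.7 and 664.7 CPM with the LINC00641 ASO and at 1079, 1021 and 998.4 CPM with the LINC00662 ASO. All targeting libraries were above all control ASO libraries, by 1.14 ± 0.07, 1.23 ± 0.08 and 1.81 ± 0.06 on the log2 scale. The highest group was the LINC00662 ASO, where MKI67 was also above the SETD5-AS1 ASO (0.60 ± 0.06, edgeR adjusted p = 7.6e-07) and the LINC00641 ASO (0.52 ± 0.07, adjusted p = 2.3e-05), both under the fold size used for a call. PCNA, the sliding clamp of DNA polymerases, was not called in any of these comparisons, at 275.5 to 303.7 CPM with the control ASO and 201.5 to 267.4 CPM in the targeting libraries. Every targeting library thus lay below every control ASO library. With the SETD5-AS1 ASO, PCNA passed adjusted p lower in all alternative settings listed below (log2 fold change -0.53 to -0.34). For LINC00662 it also passed lower in all of them (-0.32 to -0.21). For LINC00641 it ran from -0.24 to -0.11 and did not pass in all of them. CDK1, the kinase that starts mitosis, did not pass the test with any ASO, at 57.9 to 72.6 CPM with the control ASO and 66.0 to 92.1 CPM otherwise.

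Other members were called with 1 ASO only. Cyclin A2 (CCNA2) fell with the SETD5-AS1 ASO, from 158.6, 165.5 and 144.7 CPM to 95.1, 97.0 and 86.8 CPM (log2 fold change -0.82 ± 0.08), and it was the 1 member of 38 that passed adjusted p between the SETD5-AS1 and LINC00641 ASOs (-0.35 ± 0.08, edgeR adjusted p = 0.023), where 0 members and 1.72% of all genes were called and 5.90% of all genes passed adjusted p. At an unadjusted p under 0.05, 1 member was higher and 6 were lower there. The share of all genes at that threshold was not counted, so these counts have no background. DESeq2 also called 0. PLK1, a kinase of mitotic entry, was called with the LINC00641 ASO at -0.76. It fell under the fold size without LINC00641 ASO replicate 2 (-0.68) or control ASO replicate 1 (-0.72). It was at -0.71 and -0.58 with the SETD5-AS1 and LINC00662 ASOs, past adjusted p but under the fold size. MCM5, a subunit of the replicative helicase, was called with the LINC00662 ASO (-0.87), where it was at 141.2, 163.8 and 153.8 CPM against 285.7, 272.2 and 277.1 CPM with the control ASO. It was lower with the SETD5-AS1 ASO too (-0.69, adjusted p = 5.7e-07 in edgeR). TTK, a spindle checkpoint kinase, was at 56.3, 53.5 and 55.7 CPM with the LINC00662 ASO against 110.4, 120.8 and 105.6 CPM (-1.03), and at 70.2 to 91.4 CPM with the other ASOs.

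By role, the mitosis members had a median log2 fold change of -0.38, -0.32 and -0.22 with the SETD5-AS1, LINC00641 and LINC00662 ASOs, and the replication members -0.02, 0.05 and -0.05. The medians over all genes tested were 0.028, 0.0042 and 0.0013. Single replication members moved in both directions, named after the values were seen. In the same order of ASOs, MCM3 was at -0.41, -0.53 and -0.41 and GINS2 at 0.56, 0.52 and 0.30, each past adjusted p and under the fold size. On adjusted p alone, with the SETD5-AS1 ASO 4 of 38 members passed higher and 17 lower, where 52.7% of all genes passed, 26.9% higher and 25.8% lower. With the LINC00641 ASO 8 passed higher and 14 lower, against 49.7% of all genes (25.2% and 24.4%). With the LINC00662 ASO 7 passed higher and 18 lower, against 54.4% (27.6% and 26.8%). The mitochondrial share of counts was 3.05 to 3.48% with the control ASO and 2.18 to 2.93% with the targeting ASOs, and its part in these differences was not tested.

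**Figure D2:**
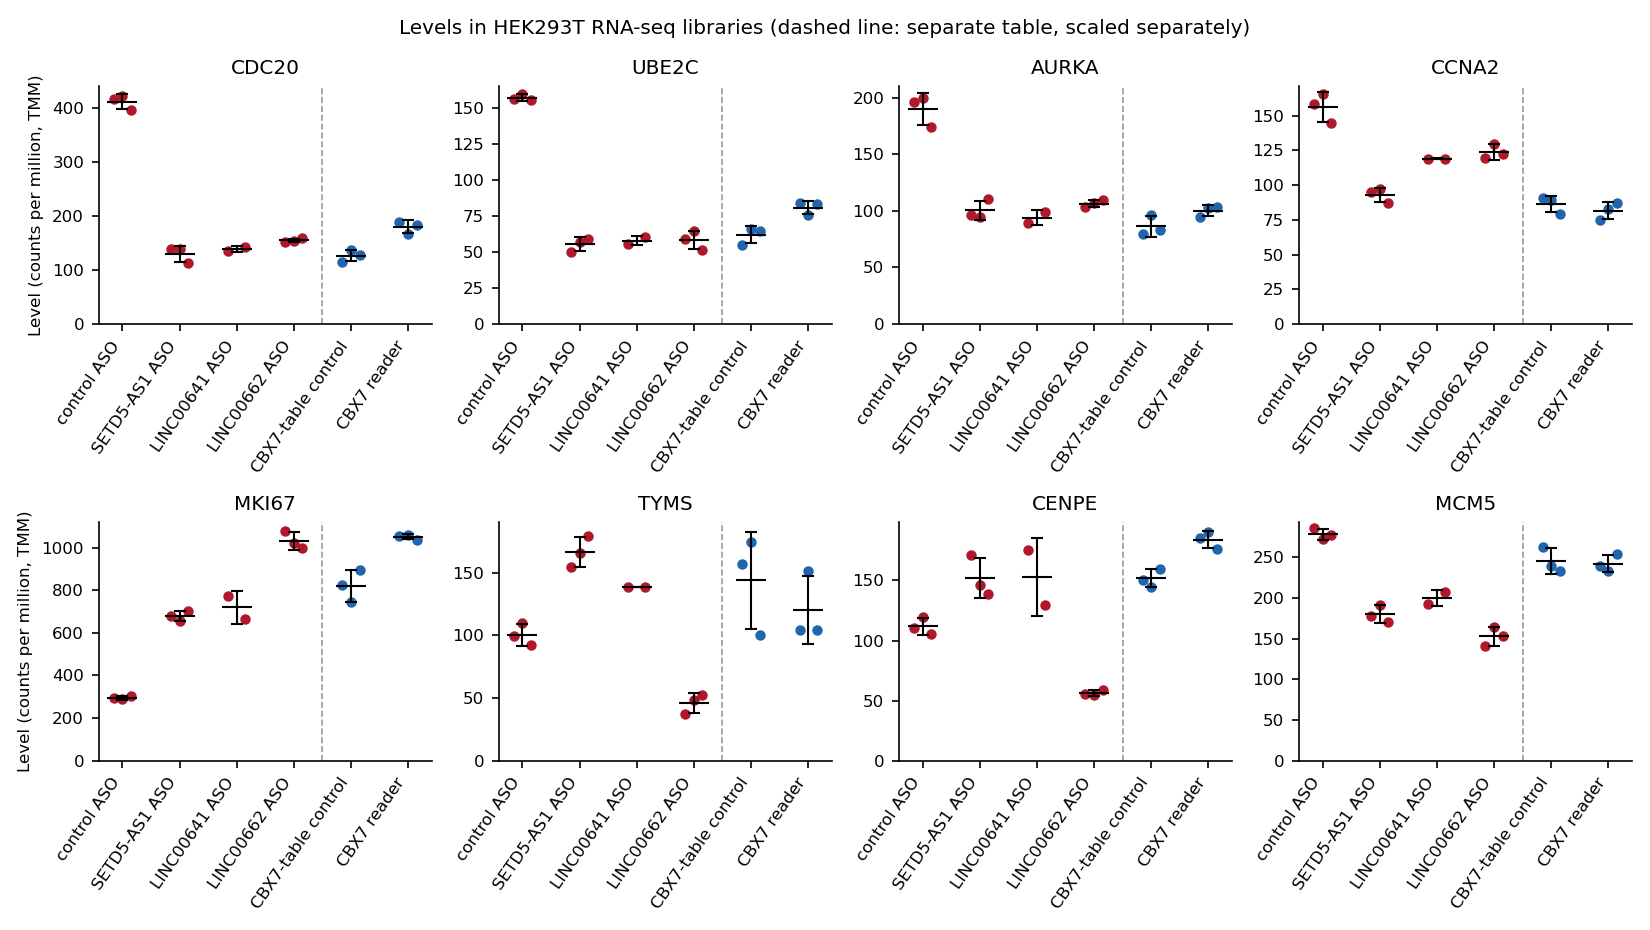
Levels of 8 members in CPM (vertical axes, from 0) in each HEK293T RNA-seq library (points), with group mean and SD (bars). Groups left of the dashed line come from the ASO table and those right of it from the separately scaled CBX7 table. For CDC20, UBE2C, AURKA and MKI67 the control ASO libraries stand apart from all others, and for TYMS and CENPE the LINC00662 ASO libraries are the lowest.

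The separate RNA-seq control of the CBX7 comparison gives a second set of HEK293T levels. The tables were scaled separately, so the values are set side by side without a test. CDC20 was at 115.6, 136.5 and 127.7 CPM there, UBE2C at 55.3, 66.1 and 64.9 CPM, AURKA at 79.5, 96.5 and 82.98 CPM and MKI67 at 823.2, 747.2 and 897.5 CPM. For each of these genes the values lay nearer to the targeting ASO libraries than to the control ASO libraries. MCM5 did not follow this, at 233.6 to 263.2 CPM, between both sets. What sets the control ASO libraries apart was not tested.

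TYMS, which makes thymidylate for DNA synthesis, and CENPE, a kinesin that links chromosomes to spindle microtubules, were the only members called between targeting ASOs. TYMS (chr18:657604-673578) was at 37.3, 48.2 and 52.5 CPM with the LINC00662 ASO, at 154.6, 165.7 and 179.1 CPM with the SETD5-AS1 ASO, at 138.6 and 138.7 CPM with the LINC00641 ASO and at 99.5, 109.4 and 91.9 CPM with the control ASO. The LINC00662 ASO libraries were below every other library. The log2 fold change was -1.86 ± 0.10 against the SETD5-AS1 ASO (edgeR adjusted p = 1.2e-10), -1.59 ± 0.10 against the LINC00641 ASO and -1.13 ± 0.10 against the control ASO. CENPE (chr4:104026963-104119566) was at 55.8, 54.5 and 58.7 CPM with the LINC00662 ASO, and at 170.9, 146.2 and 138.6 CPM, 175.6 and 130.0 CPM, and 110.2, 119.6 and 105.5 CPM in the other groups in the same order. It too was lowest in all 3 LINC00662 ASO libraries, by -1.43 ± 0.08, -1.44 ± 0.10 and -0.995 ± 0.07. These 2 of 38 compare with 11.1% of all genes called against the SETD5-AS1 ASO (8.57% lower) and 8.41% against the LINC00641 ASO (6.15% lower). TYMS overlaps ENOSF1 and C18orf56 on the opposite strand, and strandedness of the counting is not stated.

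TYMS and CENPE were also the only 2 of the 38 members whose span held a stretch of at least 17 bases complementary to LINC00662-ASO-3 on the RNA strand, printed above. The site in TYMS lies in an intron at chr18:664535-664554 on the plus strand. These matches were looked for after the values were seen. Over all genes tested in the ASO fits, 1232 of 18529 (6.65%) held such a stretch. Against the SETD5-AS1 ASO, 774 of 1207 genes with the stretch were called lower with the LINC00662 ASO (64.1%), compared with 5.05% of 416 genes with the stretch on the opposite strand only and 4.70% of genes with neither. Against the LINC00641 ASO the shares were 59.0%, 4.34% and 2.46%, and against the control ASO 47.0%, 5.71% and 10.9%. Between the SETD5-AS1 and LINC00641 ASOs, which do not carry this sequence, 1.24% of genes with the stretch were called lower, and 0.619% of genes with neither. Against the control ASO, 26.9% (SETD5-AS1) and 23.2% (LINC00641) of genes with the stretch were called higher, compared with 11.8% and 10% of genes with neither. With the LINC00662 ASO, 24.8% of genes with it on the opposite strand only were called higher, and 12% of genes with neither. Genes with the stretch on either strand were long, with median spans of 205 to 208 kb (RNA strand) and 154 to 156 kb (opposite strand only) in the comparisons with the LINC00662 ASO, against 23.3 to 23.6 kb for the rest. Whether the stretch took part in the lower levels was not tested.

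**Figure D3:**
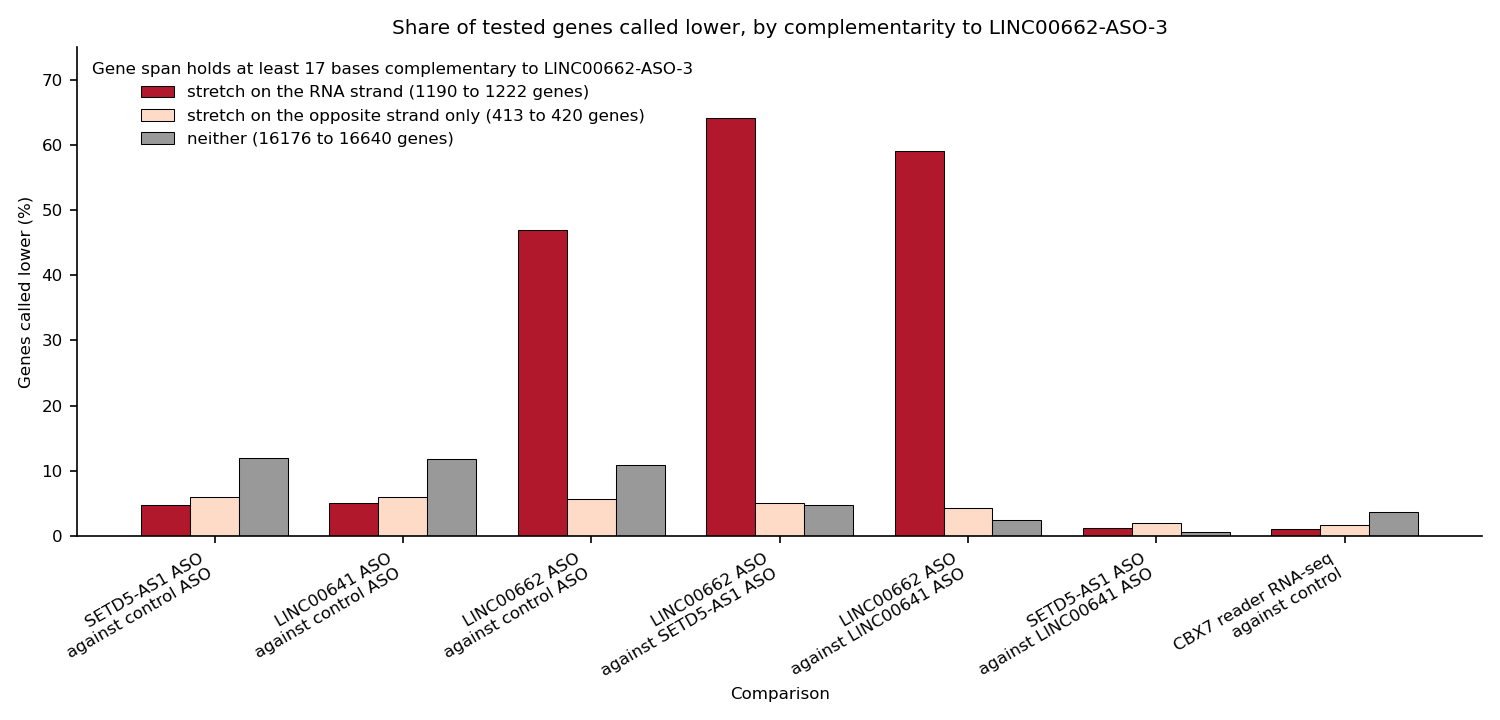
Percentage of tested genes called lower (vertical axis) in 7 HEK293T comparisons, for genes with at least 17 bases complementary to LINC00662-ASO-3 on the RNA strand (red), on the opposite strand only (pale) and neither (grey). The red bars reach 47.0%, 64.1% and 59.0% in the comparisons of the LINC00662 ASO and stay at most 5.11% in the others. Genes called higher are not shown.

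The same held for the wider set of replication, mitosis and G1 control genes. Of 137 such genes, 9 held the stretch, and 6 were called lower with the LINC00662 ASO than with both other targeting ASOs, all 6 of them among the 9. ORC4, a subunit of the origin recognition complex and the 1 gene of the 9 with the stretch in an exon, was at 9.14, 12.5 and 10.3 CPM against 34.6 to 38.8 CPM with the SETD5-AS1 ASO (-1.77 ± 0.11). SPC25, of the kinetochore NDC80 complex, was at 9.54, 12.7 and 12.1 CPM against 53.9 to 57.8 CPM (-2.29 ± 0.10). POLA1, WDHD1, KIF4A and KIF15 were lower by -1.40, -1.53, -1.55 and -1.15, and hold it in introns. The other 3 with the stretch were not called, with PRIM2 at -0.64, POLD3 at -0.13 and CCNG2 at -0.13. Against the LINC00641 ASO the largest falls were those of SPC25 (-2.43), ORC4 (-1.71) and WDHD1 (-1.69). Higher than with the SETD5-AS1 ASO were CDKN1A (0.82, and 0.66 or 0.69 without LINC00662 ASO replicate 1 or SETD5-AS1 ASO replicate 3, under the fold size) and E2F7 (0.81), a repressor of the E2F family.

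Against the control ASO, further genes of the pathways were called in either direction in shares near or below those of all genes. Of 43 further replication genes, 7, 7 and 3 were called higher and 2, 2 and 3 lower with the SETD5-AS1, LINC00641 and LINC00662 ASOs. Of 60 further mitosis genes, 4, 2 and 4 were called higher and 4, 4 and 5 lower. Over all genes the shares were 12.9% (higher) and 11.5% (lower) for SETD5-AS1, and 11.6% (higher) and 13.3% (lower) for LINC00662. For LINC00641, 22.5% of all genes were called in either direction, 2034 of 18503 higher and 11.5% lower. The 7 of 43 replication genes called higher with the SETD5-AS1 and LINC00641 ASOs are somewhat above the shares of all genes called higher. ORC1, the largest subunit of the origin recognition complex, had the largest rise with each. It was at 15.3, 17.6 and 14.9 CPM with the control ASO and at 54.3 to 70.4 CPM in the targeting libraries, with log2 fold changes of 2.04, 2.05 and 1.78. It stood at 59.1 to 66.4 CPM in the RNA-seq control of the CBX7 comparison. WDHD1, a replication fork protein, rose with the SETD5-AS1 ASO (1.15) and the LINC00641 ASO (1.31). POLA1, the catalytic subunit of the priming polymerase, rose with the same ASOs (0.95 and 1.21). RBL2 (p130), which represses E2F targets in resting cells, was called higher for SETD5-AS1 (1.11) and LINC00662 (1.20). With the LINC00641 ASO it was at 85.5 and 76.6 CPM, against 41.4 to 50.6 CPM with the control ASO. HMMR, a spindle protein, was called higher for LINC00662 (1.26). It was at 95.2 to 124.2 CPM with the SETD5-AS1 ASO and 162.1 and 124.0 CPM with the LINC00641 ASO, against 57.2 to 69.8 CPM.

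Among the falls, CDKN2D, an inhibitor of CDK4 and CDK6, was at 9.90, 9.72 and 10.5 CPM with the control ASO and at 3.21 to 4.70 CPM with the SETD5-AS1 ASO (-1.41) and 3.88 and 4.63 CPM with the LINC00641 ASO (-1.29). FEN1, the flap endonuclease of lagging strand synthesis, was low throughout, at 2.60 to 4.61 CPM against 1.47 to 1.76 CPM (-1.16) and 1.40 and 1.59 CPM (-1.30). Its level with the LINC00662 ASO was 1.53, 1.66 and 1.18 CPM. CDCA5 (sororin), which holds sister chromatids together, was at 251.6 to 269.1 CPM with the control ASO and 105.7 to 142.7 CPM with the targeting ASOs. The largest falls with the LINC00662 ASO were those of ORC4 (-2.04), SPC25 (-1.85) and KIF4A (-1.40), all with the stretch. CDKN1A (p21), an inhibitor of cyclin-dependent kinases, was called with the SETD5-AS1 ASO (-0.87 ± 0.16), at 7.89, 7.40 and 5.53 CPM against 11.98, 12.8 and 11.5 CPM, and was at -0.21 and 0.02 with the other ASOs. It was under the fold size with library-size scaling (-0.73) and without SETD5-AS1 ASO replicate 3 (-0.72). Cyclin D1 (CCND1), which opens the G1 phase, was at -0.70, -0.97 and -0.49, past adjusted p in each and called with the LINC00641 ASO.

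With the CBX7 reader in HEK293T RNA-seq, no member was called, where 7.66% of all genes were. The study's methods call the control untreated, while its labels give the biotin-aniline and peroxide step. If it was untreated, the reader cannot be told apart from transfection, APEX2 or that step in the differences below. On adjusted p alone 10 members passed higher and 2 lower, where 13.8% of all genes passed higher and 15.4% lower. At an unadjusted p under 0.05, 16 members were higher and 2 lower, with no share of all genes counted at that threshold. DESeq2 also called 0. E2F1, a factor that turns on S phase genes, had the smallest p and was lower, at 70.3, 64.6 and 69.5 CPM against 120.0, 95.7 and 114.2 CPM in the control. Its groups did not overlap, and the log2 fold change was -0.68 ± 0.09 (edgeR adjusted p = 5.7e-05). CDC20 was higher, at 190.0, 167.0 and 183.7 CPM against 115.6, 136.5 and 127.7 CPM (0.51 ± 0.09), and GINS2, part of the replicative helicase, was at 95.4, 98.6 and 99.6 CPM against 71.0, 75.5 and 63.2 CPM (0.49 ± 0.09). MKI67 was at 0.36 ± 0.07, past adjusted p, while PCNA (0.07) and CDK1 (-0.03) did not pass. The median was 0.17 over the mitosis members, of which 7 passed higher and 0 lower, 0.02 over the replication members and -0.012 over all genes. Among further genes, CDKN2D was called higher (1.19), as were E2F8 (0.93) and LIN52 (0.81, and 0.74 without CBX7 replicate 3). CDKN1A (-0.53) and CCND1 (0.33) passed adjusted p only.

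In HCT116 Chrom-seq, the RNA of every replication member was recovered at a higher level with the TAF3 reader than with the array alone, while most mitosis members differed little. In Chrom-seq a difference is one in RNA labelled by the recruited peroxidase, so a change of RNA near the reader and a change of RNA in the cell cannot be told apart. All 17 replication members passed adjusted p higher, from 0.37 to 1.37 on the log2 scale, and in all 17 the groups did not overlap, where 17.9% of all genes passed higher and 22.2% had higher groups that did not overlap. Of the 21 mitosis members 8 passed higher and 1 lower. With the fold size, 5 members were called higher and 0 lower, where 6.62% of all genes were called and 3.34% of all genes were called higher.

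**Figure D4:**
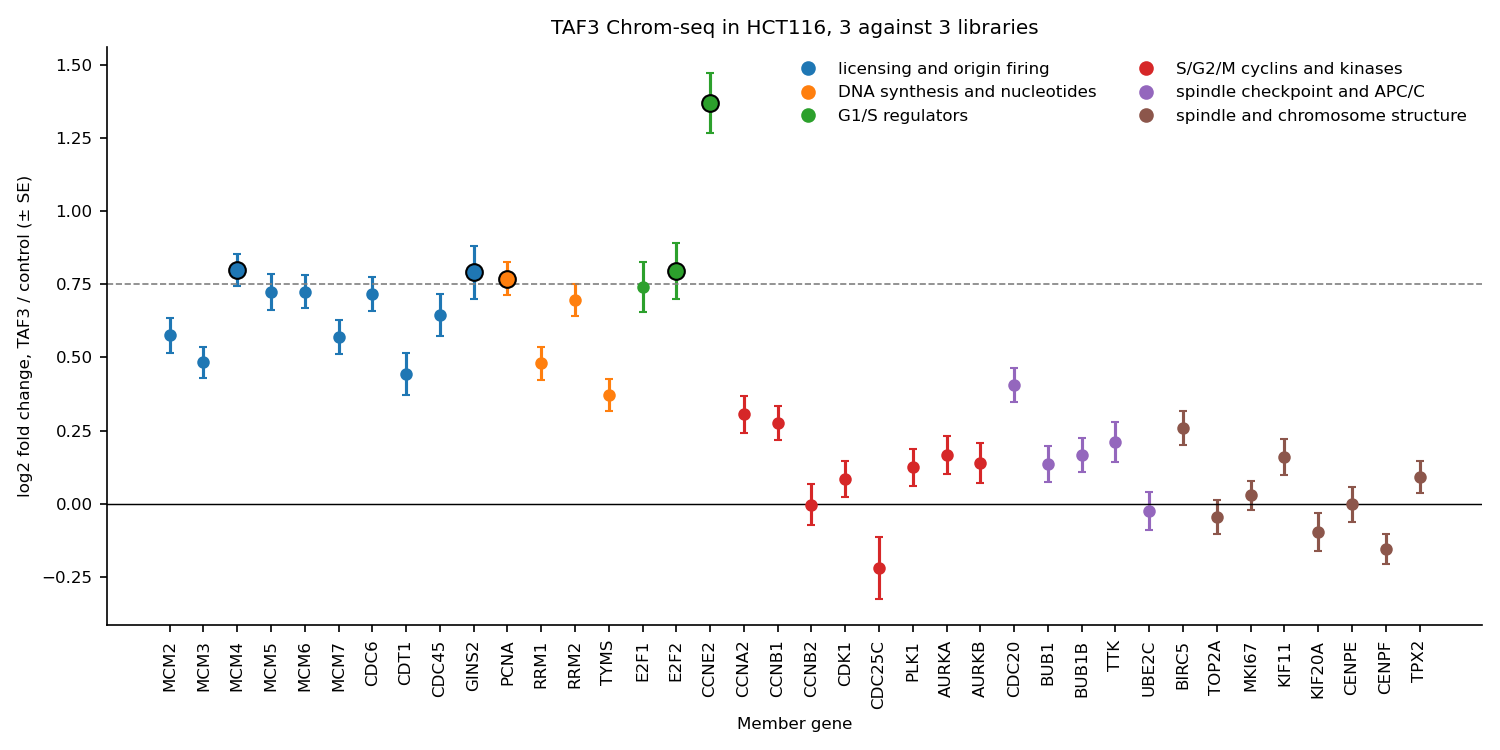
Log2 fold change (± SE) of each member in HCT116 Chrom-seq, TAF3 reader over control with 3 libraries each, coloured by role. Large outlined points are called, and the dashed line marks the fold size of 0.75. The points of the 17 replication members, at the left, lie between 0.37 and 1.37, and those of the mitosis members lie at or below 0.41.

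Cyclin E2 (CCNE2), which activates CDK2 at the start of S phase, differed most among the members. It was at 26.9, 29.7 and 28.0 CPM with TAF3 and 11.2, 10.6 and 11.1 CPM in the control, which differ by 1.37 ± 0.10 on the log2 scale (edgeR adjusted p = 1.5e-14). The helicase subunit MCM4 was at 419.7, 452.1 and 408.5 CPM against 244.8, 234.1 and 258.2 CPM (0.80 ± 0.05). PCNA was at 223.8, 214.2 and 217.9 CPM against 134.2, 122.0 and 129.7 CPM (0.77 ± 0.06). GINS2 was at 36.6, 46.1 and 37.1 CPM against 23.8, 21.9 and 23.7 CPM (0.79 ± 0.09), and E2F2, a paralog of E2F1, at 29.2, 32.9 and 31.8 CPM against 20.5, 16.4 and 17.4 CPM (0.79 ± 0.10). All TAF3 libraries were above all control libraries for each of these genes. Without control replicate 2, 3 members were called, with E2F2 and PCNA both at 0.73, and without TAF3 replicate 2 GINS2 was at 0.68.

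On the mitosis side, CDC20 had the highest value, at 172.9, 174.8 and 175.7 CPM against 139.9, 130.7 and 125.1 CPM (0.41 ± 0.06, edgeR adjusted p = 2.3e-07). CENPF, a kinetochore protein, was the 1 member that passed lower (-0.15). CDK1 was at 96.1, 90.4 and 91.3 CPM against 86.1, 89.96 and 86.2 CPM (0.09), and MKI67 at 1930, 1796 and 1925 CPM against 1749, 1896 and 1905 CPM (0.03), and neither passed. By role the medians were 0.68 for licensing, 0.59 for synthesis and 0.79 for G1/S regulators, against 0.13 for cyclins and kinases, 0.17 for the checkpoint, 0.01 for the spindle and -0.0067 for all genes. The further replication genes moved likewise, with 40 of 43 past adjusted p higher, 0 lower and a median of 0.50, while of 60 further mitosis genes 23 passed higher and 3 lower. The largest rises were those of CDC25A (1.32), the phosphatase that activates CDK2, FEN1 (1.14) and MCM10 (1.10), a replication initiation factor. FEN1 rested on 17 to 22 counts a library with TAF3 and 8 to 12 in the control. It did not pass adjusted p in DESeq2 (0.066) or in edgeR without control replicate 1 or 2 or any 1 of the 3 TAF3 libraries (0.059 to 0.099). ORC1, named here for its change with the ASOs, was at 44.2, 46.0 and 46.8 CPM against 20.2, 21.9 and 24.4 CPM (1.04). CDKN1A (-0.40) was lower and CCND1 (0.39) higher on adjusted p alone, and the inhibitor CDKN1C (-1.09) and cyclin G2 (CCNG2, -0.93) were called lower. The mitochondrial share was 13.7 to 14.1% in the control and 11.7 to 13.1% with TAF3, and its part was not tested.

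The same roles differ in promoter letters. In RefSeq promoters of GRCh38.p14, 300 bases each with 250 before and 50 after the start, 30 of 38 members matched with 41 promoters. MCM4, MCM5, CCNE2, AURKA, TTK, UBE2C, BIRC5 and TPX2 had no entry, so the shares do not cover them. Shares are per promoter, and CDC25C had 4 promoters and MCM7 and CDC45 had 3 each. The E2F letters TTTCCCG or TTTGGCG, on either strand, were in 60% of 20 promoters of replication members, 9.52% of 21 promoters of mitosis members and 6.06% of all 35116 promoters. The CHR letters TTTGAA, known from genes of mitosis, were in 5%, 57.1% and 15.2% in the same order, and CCAAT in 75%, 81.0% and 34.6%. CDC20 and PCNA are printed as examples of the roles, with these motifs on either strand in capitals, PCNA at chr20:5126573-5126872 (minus strand) and CDC20 at chr1:43358731-43359030 (plus strand).
PCNA promoter: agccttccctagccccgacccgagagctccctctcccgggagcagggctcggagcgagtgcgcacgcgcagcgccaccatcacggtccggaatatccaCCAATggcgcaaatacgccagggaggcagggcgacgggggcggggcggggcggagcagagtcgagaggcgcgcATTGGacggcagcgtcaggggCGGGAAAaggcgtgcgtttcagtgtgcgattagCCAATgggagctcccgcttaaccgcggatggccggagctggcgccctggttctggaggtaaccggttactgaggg
CDC20 promoter: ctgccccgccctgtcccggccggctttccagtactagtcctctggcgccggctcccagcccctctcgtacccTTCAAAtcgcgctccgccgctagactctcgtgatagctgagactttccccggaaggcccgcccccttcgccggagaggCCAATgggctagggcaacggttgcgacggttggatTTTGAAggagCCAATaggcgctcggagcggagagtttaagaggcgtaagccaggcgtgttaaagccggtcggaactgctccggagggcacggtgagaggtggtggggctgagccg
CDC20 holds 2 CHR and 2 CCAAT matches and no E2F match, and the printed PCNA promoter holds 1 E2F and 3 CCAAT matches and no CHR match. The table lists a second PCNA promoter, at chr20:5119909-5120208, which holds 0 E2F, 2 CCAAT and 0 CHR matches. A match is a description of letters and not of a bound site.

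The mouse lines did not show the HCT116 pattern. In NIH3T3, 37 members were tested, since Cdt1 had no count in any mouse library, and 0 were called, where 11.1% of all genes were called, 10.7% higher and 0.375% lower. DESeq2 also called 0. At an unadjusted p under 0.05, 16 members were lower and 0 higher, with no share of all genes counted at that threshold. On adjusted p alone 9 members passed lower and 0 higher, where 9.79% of all genes passed lower, and 33 of the 37 had negative values, with a median of -0.15 against 0.020 for all genes. Cenpf was at 283.7, 297.7 and 291.0 CPM with TAF3 and 369.3, 354.2 and 380.2 CPM in the control (-0.33, edgeR adjusted p = 4.4e-05). Top2a, the topoisomerase that untangles chromosomes, was at 369.7, 378.5 and 356.8 CPM against 464.1, 428.4 and 488.6 CPM (-0.32), and Cenpe at 291.2, 296.0 and 266.1 CPM against 354.2, 343.2 and 350.3 CPM (-0.29). The groups did not overlap for any of these 3 genes. Mki67 also passed (-0.26), at 604.9, 617.1 and 538.3 CPM against 681.5, 691.1 and 736.3 CPM, while Pcna, at 56.9 to 62.2 CPM against 67.8 to 72.8 CPM, and Cdk1 (-0.17) did not. Of the further genes 17 of 43 for replication and 24 of 59 for mitosis passed lower, none of them called. Btg2, an inhibitor of proliferation, was the called further gene, at 39.7, 31.0 and 30.5 CPM against 17.4, 19.4 and 19.7 CPM (0.84, and 0.72 without TAF3 replicate 1, under the fold size).

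In Neuro-2a, 0 of 37 members were called and 0 passed adjusted p in edgeR, where 1.03% of all genes were called and 1.24% passed, and DESeq2 also called 0. At an unadjusted p under 0.05, 14 members were lower and 0 higher. The share of all genes at that threshold was not counted, so this is not read as a result about the members. The values were negative for 35 of 37, with a median of -0.25 against 0.031 for all genes. Mcm5 had the smallest p, at 63.4, 66.2 and 70.1 CPM with TAF3 against 93.2, 86.4 and 84.1 CPM (-0.39 ± 0.10, edgeR adjusted p = 0.098). In TAF3 replicate 1, several members differed from both other libraries of the group, with Ccne2 at 30.1 CPM against 60.7 and 64.1 CPM, Mki67 at 588.7 CPM against 1080 and 1061 CPM, Pcna at 30.8 CPM against 51.2 CPM in both, and E2f2 at 121.6 CPM against 70.9 and 70.7 CPM. The Neuro-2a control libraries had Mki67 at 1129 to 1213 CPM and Pcna at 51.8 to 55.1 CPM. Without that library 0 members were called and the median was -0.18. On adjusted p alone, 11 of the 37 members then passed lower and 0 higher, where 16.3% of all genes passed in either direction. Mcm5 was then at -0.36 ± 0.08 (edgeR adjusted p = 0.0012) and Ccne2 at -0.44 ± 0.08, and E2f1 had the largest difference of the 11 (-0.48 ± 0.09), named after the values were seen. Pcna (-0.07), Mki67 (-0.10) and Cdk1 (-0.16) did not pass.

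The effect of TAF3 in Neuro-2a did not pass a test of difference from that in NIH3T3 for any member, with 0 of 37 called where 3.05% of all genes were called and 3.38% passed adjusted p. DESeq2 also called 0. At an unadjusted p under 0.05 the difference was positive for 1 member and negative for 2, with no share of all genes counted at that threshold. The members with the smallest p were E2f2 (0.73 ± 0.29, adjusted p = 0.24 in edgeR), Ccne2 (-0.62 ± 0.26, adjusted p = 0.28) and Mcm6 (-0.27, adjusted p = 0.30). Without Neuro-2a TAF3 replicate 1, E2f2 was at 0.43 (edgeR adjusted p = 0.21), Ccne2 at -0.35 (0.083) and Mcm6 at -0.29 (0.08), with 0 of 37 past adjusted p where 7.19% of all genes passed. Of the further genes, Cdk6, the kinase partner of D-type cyclins, was called (edgeR adjusted p = 0.0091) on 4, 4 and 9 counts with TAF3 against 0, 2 and 1 counts in Neuro-2a, and it lost the call without Neuro-2a control replicate 1 (0.064) or TAF3 replicate 3 (0.087). HCT116 was not tested against the mouse lines. Counts at the Taf3 gene were 124 to 134 CPM in the NIH3T3 control and 7910 to 9100 CPM with the reader. They were 174 to 201 and 1570 to 1850 CPM in Neuro-2a, and 22.7 to 25.3 and 32.1 to 32.9 CPM at TAF3 in HCT116. The paper's TAF3 reader is a fragment of the mouse protein, and HCT116 reads were aligned to the human genome. Reads of the reader may be in these counts, so they do not compare reader levels between lines. Their source was not tested.

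**Figure D5:**
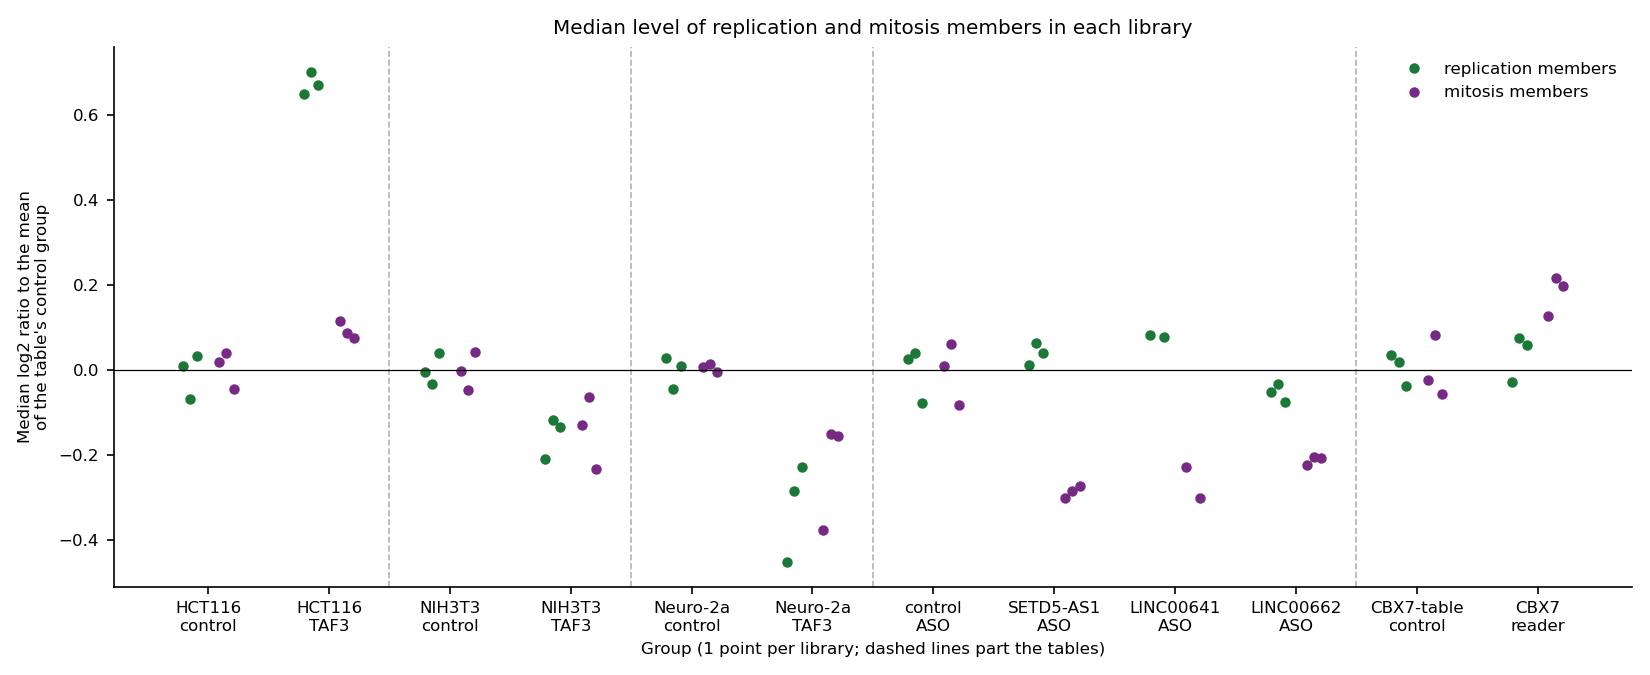
Median log2 ratio of the replication members (green) and mitosis members (purple) in each library to the mean of its table's control group (vertical axis, after adding 0.5 CPM), 1 point per library. The HCT116 TAF3 libraries have replication medians of 0.65 to 0.70 and mitosis medians of 0.08 to 0.12, the mouse TAF3 libraries lie below 0 for both, and the targeting ASO libraries lie below 0 for mitosis.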

How the data were processed

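The authors trimmed reads with fastp 0.23.1, checked them with FastQC 0.11.8, aligned them with HISAT2 2.1.0 to hg19 or mm10 and counted them per gene with featureCounts 2.0.1 over GENCODE annotation, and the deposited tables hold these raw counts with no normalization. Their own test used DESeq2 1.34.0. Gene lengths in the tables equal the whole gene span, so intronic reads may be included, and the strandedness of the counting is not stated. In the human annotation, 20 members have no overlapping gene, 14 overlap a gene on the opposite strand and 5 one on the same strand. Levels are not compared between genes.

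Here, counts were tested with edgeR 4.0.16 in R 4.3.3 (quasi-likelihood test, TMM scaling, 2 groups per fit, genes with a summed count above 3 per library, that is above 18 for 6 libraries and 15 for 5, Benjamini-Hochberg over all genes tested). Calls needed an adjusted p under 0.05 with a difference of 0.75 or more on the log2 scale, and the standard error is the fold change over the square root of F. Levels are TMM-scaled CPM within a table. The scripts were tested on simulated data. Alternatives were DESeq2 1.42.0, other scalings and filters, no fold threshold, leaving out each library, a replicate block and a joint fit of the ASO groups. ASO matches were searched in hg19 and promoter letters in the RefSeq table. No pair of replicates among 34 was identical, and their lowest chi-square per gene was 2.405. The members, gene lists and tests were chosen with earlier results of these data known. Named are the called members of each comparison (at most 6 in a direction), otherwise the 3 with the smallest p, plus MKI67, PCNA and CDK1, and of further genes the 3 largest called changes in each direction with CDKN1A and CCND1, and genes named as chosen after their values were seen. The HEK293T Chrom-seq table, which stacks blocks of columns of which 6 match no listed sample and others carry no gene identifiers, was not used, so 12 libraries and the comparisons planned on them are not analysed here. Replicate numbers do not pair samples: correlations of deviations between same-numbered libraries ran from -0.071 to 0.18.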

Additional observations from a re-analysis of the deposited data

How the results depend on the processing

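Counts of called members stayed within 1.5 times under DESeq2, DESeq2 size factors, library-size scaling, no filter, filterByExpr and one fit of all ASO groups. With no fold threshold they were 21, 22 and 25 for the SETD5-AS1, LINC00641 and LINC00662 ASOs against the control ASO, 19 and 13 for the LINC00662 ASO against the SETD5-AS1 and LINC00641 ASOs, 1 between those, 12 for CBX7, 26 for TAF3 in HCT116 and 9 in NIH3T3. Leaving out each library gave 5 to 6, 4 to 6 and 8 to 8 called against the control ASO, 2 to 2 in both comparisons of the LINC00662 ASO with other ASOs, 0 to 0 between the SETD5-AS1 and LINC00641 ASOs, 0 to 1 for CBX7 (E2F1 at -0.76 without control replicate 2), 3 to 7 in HCT116, with 3 without control replicate 2, and 0 to 0 in NIH3T3, in Neuro-2a and for their difference. In an alternative chosen after seeing the data, 11 members passed adjusted p in Neuro-2a without TAF3 replicate 1 and with no fold threshold. Replicate numbers do not pair the samples. With a replicate block the counts were 5, 4, 8, 2, 2, 0, 0, 5, 0, 0 and 0 in the order of the comparisons above, the 1 member lost being PLK1 with the LINC00641 ASO (-0.71), and CDKN1A passed between the SETD5-AS1 and LINC00641 ASOs (-0.75). Library-size scaling moved the median of all genes with the SETD5-AS1 ASO from 0.028 to 0.1664 and the share of calls that were higher from 52.8% to 66.5%. CCNA2 (-0.68) and CDKN1A (-0.73) there and PLK1 (-0.69) with the LINC00641 ASO were then under the fold size. Between the SETD5-AS1 and LINC00641 ASOs it moved that share from 60.4% to 71.8%, and leaving out LINC00641 ASO replicate 3 moved it to 47%.

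Values that changed sign belonged to genes near 0, and are given as the lowest and highest over all alternatives, leaving out each library included. CDKN1A with the LINC00662 ASO against the control ASO ran from -0.143 to 0.0978, and was -0.0515 in one fit of all ASO groups. Between the SETD5-AS1 and LINC00641 ASOs, CDK1 ran from -0.1288 to 0.1145 and MKI67 from -0.1816 to 0.0297. CDK1 with CBX7 ran from -0.0912 to 0.0621, MKI67 in HCT116 from -0.0093 to 0.0669 and Cdkn1a in Neuro-2a from -0.1159 to 0.3329. For Neuro-2a minus NIH3T3, Pcna ran from -0.2002 to 0.1238, Mki67 from -0.237 to 0.1461 and Cdkn1a from -0.3022 to 0.1354. The causes were not tested. For single named genes, 1568 alternative values kept their direction and side of the thresholds, 22 lost the call and 2 gained it. With 2 or 3 libraries a group, members that did not pass may still differ, and the comparisons planned on the HEK293T Chrom-seq table were not run.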
